A study of Mus musculus with 6 samples.

Results

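The enzymes that make, read and destroy cyclic GMP (cGMP) were examined in cultured cardiac fibroblasts (CFs) of WT and CharmeKO mice. The set held 9 genes out of 19446 in the expression table, and all 9 had a value and passed the filter on low values. They were the subunits of soluble guanylate cyclase (sGC) Gucy1a1, Gucy1a2 and Gucy1b1, the natriuretic peptide receptors Npr1, Npr2 and Npr3, the cGMP-dependent kinases Prkg1 and Prkg2, and the cGMP phosphodiesterase Pde5a. The set was chosen by place in the pathway, but with the WT to CharmeKO contrast of these libraries already known. Their differences between genotypes are therefore given as a description, and no test is read from them.

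CharmeKO is a knockout of the long non-coding RNA Charme, made by inserting a polyadenylation signal in its locus on the C57BL/6J background, and the allele is carried by every cell of the mouse. Each genotype had 3 libraries, labelled 1 to 3, of CFs grown out of cardiac tissue of 5-week-old mice. According to the study's methods the cultures were explants of atrial tissue, pooled from littermates, grown on fibronectin in serum-rich medium, and the labels name no treatment for either genotype. Poly(A) RNA was sequenced with strand information. The study found very low levels of pCharme, the chromatin-associated isoform, in CFs and states that adult CFs do not express Charme. A comparison of the genotypes therefore asks how RNA levels differ in stromal cells taken from mice without Charme. Reads assigned to genes ranged from 38330019 to 46797446 per library. The study's methods state that experiments drew on separate isolations of primary cells, with technical replicates as well. For the supplementary figure that shows the RNA-seq of cultured CFs, its legend gives 3 independent biological replicates. The labels themselves do not say which kind the libraries of a genotype are.

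The cell type and the reads of Charme were examined first. All 10 listed fibroblast markers had values, and their summed level lay between 1062605 and 2180238 normalised reads in WT and between 1426005 and 1727347 in CharmeKO. Pecam1, which defines endothelial cells, stayed at or below 6.41 normalised reads in every library, and the cardiomyocyte genes Ryr2 and Ttn at or below 8.79. Other cardiomyocyte genes were higher: Tnnt2 had 57.1 to 757 normalised reads, Tnni3 at most 97.3 and Actn2 at most 53.4. Over the whole lists, the summed level was 2042 to 8242 normalised reads for 9 endothelial markers, led by Flt1 and Ptprb, 1032 to 17909.6 for 12 haematopoietic markers and 148 to 799 for 5 cardiomyocyte markers, with ranges that overlapped between the genotypes. The only feature without an Ensembl identifier, CUFF405, was taken to be the Charme entry that the study had added to its annotation, which is an inference. In WT 1, 2 and 3 it received 5, 15 and 11 reads, against 0, 6 and 3 in the CharmeKO libraries, so the groups overlapped at these few reads. In cells with so little Charme, such counts cannot check the knockout. Same-numbered WT and CharmeKO libraries resembled each other across genes at numbers 1 and 2, with r of 0.762 and 0.514 for deviations from the group means. At number 3 the likeness was weak (r = 0.217) and no closer than that of CharmeKO 3 to WT 2 (r = 0.222). Differences are also given number by number, and those at number 3 rest on this weaker pairing.

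cGMP is made by separate families of enzymes. sGC is a heterodimer of an alpha subunit, encoded by Gucy1a1 or Gucy1a2, and the haem-carrying beta-1 subunit encoded by Gucy1b1, and it is switched on by nitric oxide. The natriuretic peptide receptors encoded by Npr1 and Npr2 are guanylate cyclases that span the membrane and respond to atrial and brain peptides and to the C-type peptide, respectively, whereas the receptor encoded by Npr3 has no cyclase domain and clears all of these peptides. The kinases encoded by Prkg1 and Prkg2 pass the signal on, and Pde5a encodes an enzyme that breaks cGMP down. In the heart this pathway is known for restraining fibroblast proliferation and matrix synthesis and as the target of sGC stimulators and phosphodiesterase inhibitors.

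The sequences just upstream of the start sites of Gucy1a2 and Gucy1b1 are shown, since Gucy1a2 was the only gene of the set whose WT and CharmeKO libraries were fully separated and Gucy1b1, its dimer partner, was the one whose level followed the library number most closely. Both come from RefSeq on GRCm38.p6, whose promoter table held 8 of the 9 genes, and both are the 250 bases before the start in the direction of the gene, at chr9:3532099-3532348 on the plus strand for Gucy1a2 and at chr3:82074712-82074961 on the minus strand for Gucy1b1. The RefSeq starts lie 429 and 22 bases upstream of the GENCODE gene starts of Gucy1a2 and Gucy1b1 given below. Capitals mark matches to the motif CCAAT, to the GC box GGGCGG, to the TATA box TATAAA, to TGACG (part of the cAMP response element), to the E-box CACGTG and to the CArG box, each searched on both strands.
Gucy1a2: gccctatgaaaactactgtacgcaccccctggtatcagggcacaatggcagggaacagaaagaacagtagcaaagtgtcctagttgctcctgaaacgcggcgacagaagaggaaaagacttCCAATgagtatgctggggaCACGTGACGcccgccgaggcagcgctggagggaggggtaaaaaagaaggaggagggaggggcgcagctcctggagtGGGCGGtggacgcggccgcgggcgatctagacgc
Gucy1b1: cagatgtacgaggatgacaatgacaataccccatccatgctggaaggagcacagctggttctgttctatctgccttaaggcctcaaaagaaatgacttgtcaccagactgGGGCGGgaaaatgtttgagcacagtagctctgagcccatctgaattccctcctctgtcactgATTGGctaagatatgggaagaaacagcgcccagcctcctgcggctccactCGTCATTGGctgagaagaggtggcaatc
The window of Gucy1a2 was 59.6% G and C, and held CCAAT starting 129 bases before the start, CACGTG at 110 bases, TGACG at 106 bases, overlapping it, and GGGCGG at 34 bases. The window of Gucy1b1 was 51.2% G and C, and held GGGCGG at 140 bases and, on the opposite strand, CCAAT at 78 and 24 bases and TGACG at 28 bases, which overlaps the nearer CCAAT. Neither window held TATAAA or a CArG box. Of 32851 RefSeq windows of this length, 33.8% held CCAAT, 32.7% GGGCGG, 17.8% TGACG, 12.4% TATAAA, 6.02% CACGTG and 1.47% a CArG box. Such matches only describe the sequence.

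Gucy1a2 (ENSMUSG00000041624, chr9:3532778-3894736, plus strand, gene coordinates here and below from the GENCODE M21 annotation of GRCm38), which encodes the alpha-2 subunit of sGC, was lower in CharmeKO. It had 537, 404 and 519.6 normalised reads in WT 1, 2 and 3 and 241, 175 and 203 in CharmeKO 1, 2 and 3. The lowest WT library was well above the highest CharmeKO library. The mean was 487 ± 72.4 normalised reads in WT and 206 ± 33.3 in CharmeKO (SD, n = 3 libraries each), and the log2 fold change on log2(value + 1), which is CharmeKO minus WT here and below, was -1.24 (SE 0.252, limma), or 42.5% of the WT level. The difference was nearly the same at each number, with -1.15, -1.20 and -1.35 on the log2 scale for numbers 1, 2 and 3. With any single library left out the log2 fold change lay between -1.36 and -1.12.

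Gucy1a2 was the only gene of the set, 1 of 9, whose groups did not overlap, and the same was true of 4.11% of the 15948 genes tested, while 1.98% had CharmeKO wholly below WT as Gucy1a2 had. Gucy1a2 alone also moved by 1 or more on the log2 scale, against 5.04% of all genes. The limma test called none of the 9 genes at an adjusted p of 0.05, and called 0% of all genes. Of the 15948 genes, 143 had an unadjusted limma p under 0.05, a smaller share than the 0.05 such a test gives when no gene differs. This test had no term for the library number, which took a median of 73.8% of the variance over all genes. DESeq2 on the reads recovered from the values called 1 of the 9, Gucy1a2, and 0.0502% of all genes; with the library number added as a block it again called Gucy1a2, and 0.401% of all genes. Because this contrast was known when the set was chosen, these counts are given beside their background and nothing is read from them.

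The summed level of 16 smooth muscle and pericyte markers was also lower in CharmeKO at each number, but only slightly at number 1. It was 172649, 62240.5 and 272265 normalised reads in WT 1, 2 and 3 and 160309, 36331 and 61338 in CharmeKO 1, 2 and 3, lower in CharmeKO for each pair although the groups overlapped. Of the 15 markers tested, 14 were lower in CharmeKO, with a median log2 fold change of -1.60. Medians at single numbers were -0.18, -2.04 and -2.92, unlike the even difference of Gucy1a2. In 2 of them, Actg2 and Cspg4, CharmeKO lay wholly below WT, as in Gucy1a2. DESeq2 with the block called 2, Actg2 and Myh11, whereas limma and DESeq2 without the block called 0. The marker sum varied 4.37-fold among the WT libraries, over which Gucy1a2 varied 1.33-fold. Acta2, which encodes alpha-SMA, had 96903, 18191.5 and 155862 normalised reads in WT 1, 2 and 3 and 90719, 5415 and 20212 in CharmeKO 1, 2 and 3. The study stained alpha-SMA as its readout of CFs turning into myofibroblasts. The list therefore does not tell such fibroblasts from smooth muscle cells or pericytes. Whether the difference in these markers had a part in that of Gucy1a2 was not tested. In whole cultures, fewer cells of a type and less RNA per cell cannot be told apart.

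**Figure D1:**
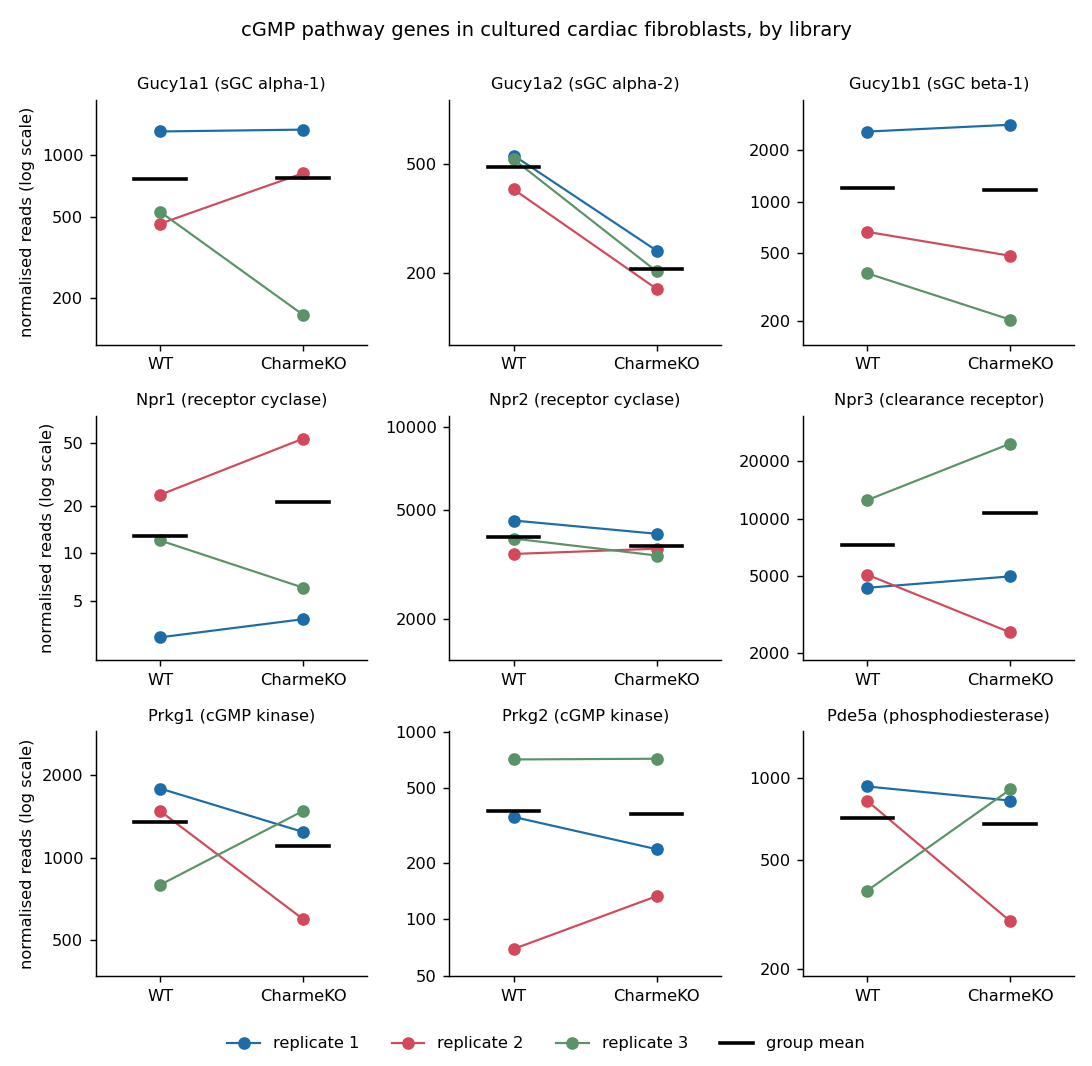
Normalised reads of the 9 cGMP pathway genes on a log axis, with 1 point per library, lines between same-numbered WT and CharmeKO libraries and black bars at the group means (n = 3). Only Gucy1a2 has all CharmeKO libraries (175 to 241) below all WT libraries (404 to 537), and in the other 8 genes the ranges of the genotypes overlap.

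The other alpha subunit showed no such separation. Gucy1a1 (ENSMUSG00000033910, chr3:82092427-82145789, minus strand), which encodes the alpha-1 subunit, had 1309.8, 463 and 529.5 normalised reads in WT 1, 2 and 3 and 1337, 819 and 166 in CharmeKO 1, 2 and 3. The number 1 libraries were high in both genotypes, and CharmeKO 3 was the lowest of all. CharmeKO minus WT came to -0.27 (log2 fold change, SE 0.815), made of 0.03, 0.82 and -1.67 at numbers 1, 2 and 3. Leaving out CharmeKO 3 turned it to 0.61, and leaving out WT 1 to 0.19. The microRNA gene Mir7010 lies on the same strand within an exon of Gucy1a1, so reads there could be left out of the count.

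Gucy1b1 (ENSMUSG00000028005, chr3:82032006-82074689, minus strand), which encodes the beta-1 subunit that every sGC dimer needs, neighbours Gucy1a1 on the chromosome. It had 2568, 666 and 381 normalised reads in WT 1, 2 and 3 and 2815, 483 and 204 in CharmeKO 1, 2 and 3. Number 1 was the highest, number 2 intermediate and number 3 the lowest in both genotypes, a span of 13.8-fold from the lowest to the highest library. Its log2 fold change was -0.41 (SE 1.09), with 0.13, -0.46 and -0.90 at numbers 1, 2 and 3, and turned to 0.37 when WT 1 was left out and to 0.43 when CharmeKO 3 was.

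The balance of the subunits was compared per kilobase (kb) of exon. Gucy1a2 made up 30.0%, 47.7% and 50.7% of the summed alpha subunit level in WT 1, 2 and 3 and 15.9%, 18.3% and 56.1% in CharmeKO 1, 2 and 3. The share was lower in CharmeKO at numbers 1 and 2 but not at number 3, where Gucy1a1 itself was at its lowest. The summed alpha level was 269, 127 and 154 normalised reads per kb in WT and 228, 144 and 54.3 in CharmeKO, so the groups overlapped. The alpha sum relative to Gucy1b1 ranged from 0.411 to 1.59 in WT and from 0.318 to 1.17 in CharmeKO. The level of Gucy1a1 per kb relative to that of Gucy1b1 was 0.287, 0.392 and 0.783 in WT 1, 2 and 3 and 0.268, 0.956 and 0.458 in CharmeKO 1, 2 and 3. On the log2 scale, and without division by length, this ratio was higher in CharmeKO by 0.14, which was smaller than its SD over the libraries of WT (0.74) and of CharmeKO (0.92, n = 3 each), with -0.10, 1.28 and -0.77 at numbers 1, 2 and 3. Leaving out WT 1 turned it to -0.18, and leaving out CharmeKO 2 to -0.35.

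**Figure D2:**
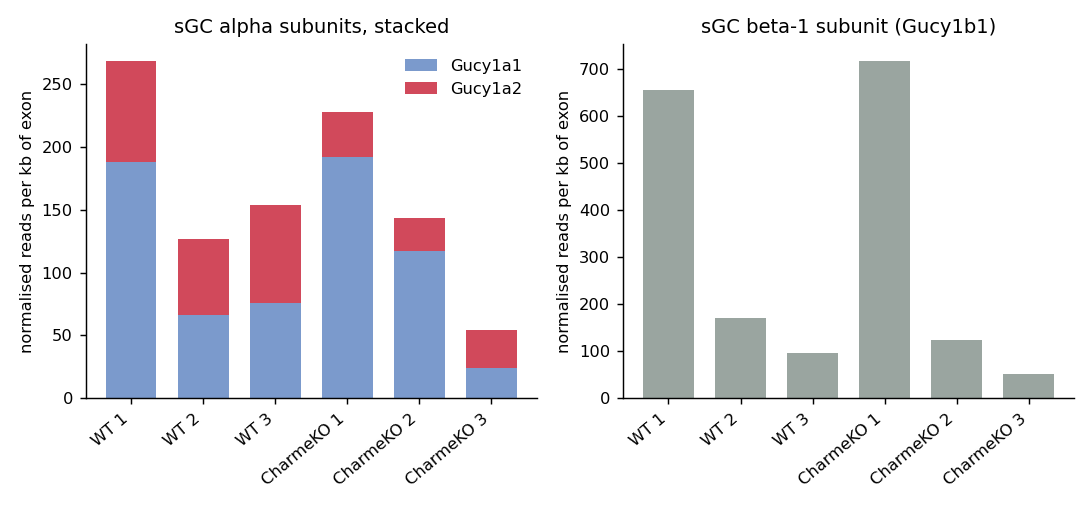
Normalised reads per kb of exon in each library for the alpha subunits of sGC, stacked (left), and for the beta-1 subunit Gucy1b1 (right). The Gucy1a2 part of the bar is 60.7 to 80.7 in WT and 26.3 to 36.3 in CharmeKO, whereas Gucy1b1 is above 600 only in the number 1 libraries.

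The number 1 libraries, where Gucy1a1 and Gucy1b1 were highest, also had the highest sum of mesothelial and epicardial markers within each genotype. That sum of 8 such markers was 19873, 3047 and 4789.9 normalised reads in WT 1, 2 and 3 and 21185, 4768 and 2755 in CharmeKO 1, 2 and 3. Msln, which encodes the mesothelial surface protein mesothelin, had 414, 19.2 and 49.4 normalised reads in WT and 603, 63.9 and 11.3 in CharmeKO. The 8 markers did not all share this pattern: Wt1 had 213, 1011 and 711 normalised reads in WT and 301, 1500.2 and 217 in CharmeKO, and Krt19 and Krt18 were not highest in number 1 in WT either. The haematopoietic and cardiomyocyte sums were also highest at number 1 within each genotype. The haematopoietic sum was 8288, 4906 and 1950 normalised reads in WT 1, 2 and 3 and 17909.6, 12958.6 and 1032 in CharmeKO 1, 2 and 3. The cardiomyocyte sum was 594, 404 and 148 in WT and 799, 292 and 162 in CharmeKO. The part of any of these markers in the levels of the sGC subunits was not tested. The genes whose log2 levels were most like those of Gucy1a1 over the 6 libraries, among 11582 with a mean of at least 100 normalised reads, were Slfn5, Tnfsf15, Srpx2, Olfm1 and Kif1a, with Pearson's r of 1.00 for Slfn5 and 0.991 to 0.996 for the others. Gucy1b1 was the 441st most alike (r = 0.883), and Gucy1a2 had r = 0.24. These correlations, here and below, describe 6 libraries that share their numbers in pairs.

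Of the natriuretic peptide receptors, only Npr2 was steady. Npr2 (ENSMUSG00000028469, chr4:43631935-43651244, plus strand), the receptor of the C-type peptide, had 4559.65, 3442 and 3918 normalised reads in WT 1, 2 and 3 and 4078, 3597 and 3397 in CharmeKO 1, 2 and 3. Its highest library was 1.34-fold above its lowest, the smallest such span of the 9 genes. Its log2 fold change was -0.10 (SE 0.170), with -0.16, 0.06 and -0.21 at numbers 1, 2 and 3, and it was 0.0031 without WT 1.

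Npr3 (ENSMUSG00000022206, chr15:11839896-11907287, minus strand), the clearance receptor, had 4359.7, 5097 and 12477 normalised reads in WT 1, 2 and 3 and 4998, 2554 and 24539.8 in CharmeKO 1, 2 and 3. The number 3 libraries were the highest in both genotypes, and CharmeKO 3 was 9.61-fold above CharmeKO 2. The log2 fold change was 0.06 (SE 0.852), with 0.20, -0.997 and 0.98 at numbers 1, 2 and 3. It turned to -0.87 without CharmeKO 3, -0.23 without WT 1 and -0.12 without WT 2.

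Npr1 (ENSMUSG00000027931, chr3:90450591-90465866, minus strand), the receptor of the atrial and brain peptides, was close to the lower limit of what these libraries could measure. The reads behind it numbered 3, 22 and 11 for WT 1, 2 and 3 and 4, 54 and 7 for CharmeKO 1, 2 and 3, or 2.95, 23.5 and 12.1 against 3.85, 53.1 and 6.09 normalised reads. The number 2 libraries were the highest in both genotypes. Its log2 fold change was 0.18 (SE 1.14), which became -0.54 with WT 1 left out and -0.88 with CharmeKO 2 left out.

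Per kb of exon, Npr3 took 32.2%, 42.2% and 61.2% of the summed level of the natriuretic peptide receptors in WT 1, 2 and 3 and 37.8%, 25.8% and 78.2% in CharmeKO 1, 2 and 3. The share was above 60% in number 3 of both genotypes and below 45% elsewhere. The level of Npr3 per kb relative to that of Npr2, the clearance receptor to the receptor cyclase of the C-type peptide, was 0.475, 0.736 and 1.58 in WT 1, 2 and 3 and 0.609, 0.353 and 3.59 in CharmeKO 1, 2 and 3. It was above 1 in the number 3 libraries only. On the log2 scale, and without division by length, this ratio was higher in CharmeKO by 0.16, less than its SD over the libraries of WT (0.88) and of CharmeKO (1.75, n = 3 each), with 0.36, -1.06 and 1.18 at numbers 1, 2 and 3, and this turned to -0.82 with CharmeKO 3 left out and to -0.23 with WT 1 left out. The genes most like Npr3 over the 6 libraries were St3gal2, Hdac2, Hoxa4, Qsox1 and Pold1 (Pearson's r of 0.978 to 0.997).

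**Figure D3:**
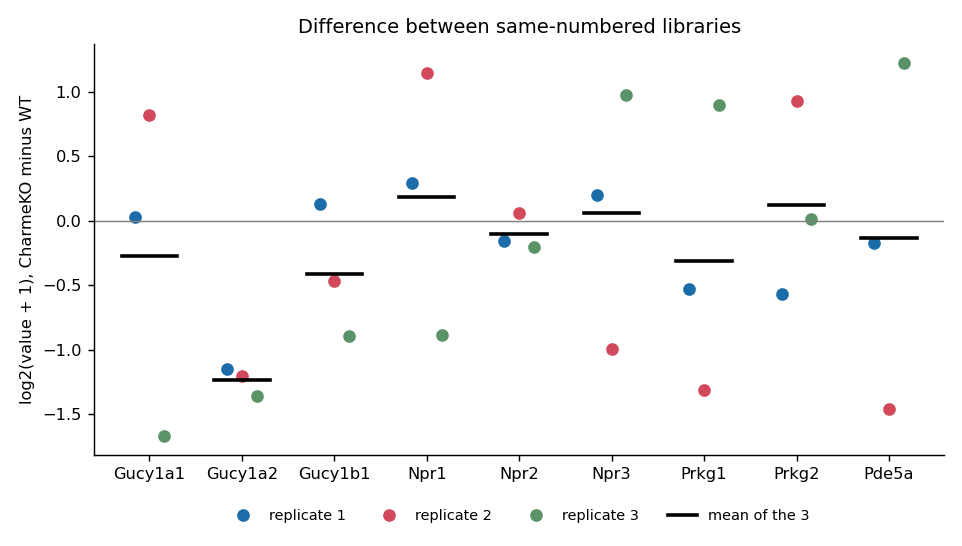
Difference in log2(value + 1) between the CharmeKO and the WT library of the same number for each gene, with black lines at the mean of the 3. The points of Gucy1a2 lie between -1.35 and -1.15, and those of each of the other 8 genes fall on both sides of 0.

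The kinase Prkg1 and the phosphodiesterase Pde5a varied together. Prkg1 (ENSMUSG00000052920, chr19:30564489-31765033, minus strand), which encodes the kinase that relaxes smooth muscle in response to cGMP, had 1792, 1483 and 798 normalised reads in WT 1, 2 and 3 and 1244, 598 and 1485 in CharmeKO 1, 2 and 3. WT 3 and CharmeKO 2 were the lowest libraries. The log2 fold change was -0.31 (SE 0.441), with -0.53, -1.31 and 0.90 at numbers 1, 2 and 3, and it was 0.08 without CharmeKO 2.

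Pde5a (ENSMUSG00000053965, chr3:122728947-122859374, plus strand), the target of sildenafil, had 928, 821 and 387 normalised reads in WT 1, 2 and 3 and 824, 299 and 905 in CharmeKO 1, 2 and 3. WT 3 and CharmeKO 2 were again the lowest, and the other 4 libraries lay close together. The log2 fold change was -0.13 (SE 0.530), with -0.17, -1.45 and 1.22 at numbers 1, 2 and 3. Leaving out WT 1, WT 2 or CharmeKO 2 turned it to 0.11, 0.02 and 0.38, respectively. Over the 6 libraries Pearson's r between the log2 levels of Prkg1 and Pde5a was 0.976. Pde5a was the 6th most alike gene to Prkg1 and Prkg1 the 4th most alike to Pde5a among the 11582 compared. The pattern rests mainly on the gap between the low pair of libraries and the rest.

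**Figure D4:**
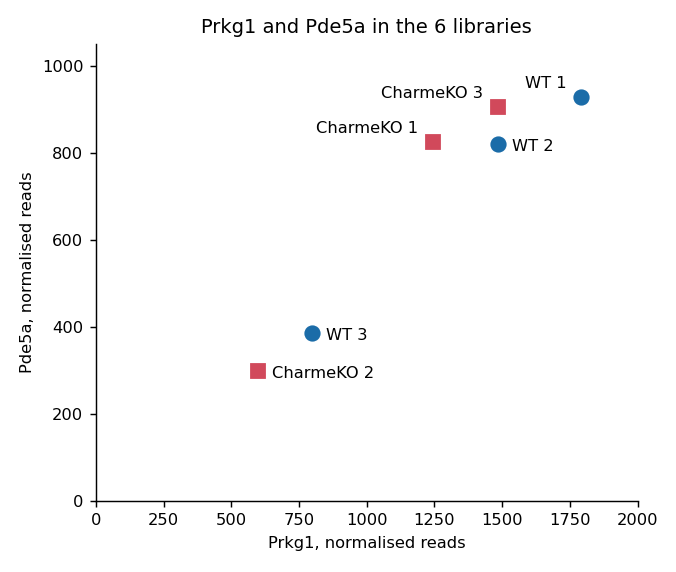
Normalised reads of Pde5a against those of Prkg1, with 1 point per library (circles WT, squares CharmeKO). WT 3 and CharmeKO 2 lie at 598 to 798 for Prkg1 and 299 to 387 for Pde5a, and the other 4 libraries at 1244 to 1792 and 821 to 928.

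The genes most like Prkg1 were Nr3c1, which encodes the glucocorticoid receptor, Cyp39a1, Cul4b, Sppl2a and Scfd2 (r of 0.981 to 0.996). Those most like Pde5a were Fgfbp3, Ror1, Irf7, Prkg1 and Cul4b (r of 0.976 to 0.985), so that Cul4b, part of a ubiquitin ligase, stood in both lists. Nr3c1 had 8100.02, 7388 and 5186 normalised reads in WT 1, 2 and 3 and 6585, 4509 and 6966 in CharmeKO 1, 2 and 3, with the same low pair of libraries.

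Prkg2 (ENSMUSG00000029334, chr5:98929773-99037351, minus strand), which encodes the membrane-bound cGMP kinase, followed the number instead. It had 352, 69.4 and 713 normalised reads in WT 1, 2 and 3 and 237, 133 and 719 in CharmeKO 1, 2 and 3, with number 3 the highest and number 2 the lowest in both genotypes. The log2 fold change was 0.12 (SE 0.976), with -0.57, 0.93 and 0.01 at numbers 1, 2 and 3, and it was -0.55 without CharmeKO 3 and -0.82 without WT 2. Per kb, Prkg2 made up 28.4%, 8.65% and 64.4% of both kinases in WT 1, 2 and 3 and 27.8%, 31.0% and 49.5% in CharmeKO 1, 2 and 3. It was thus the more abundant kinase transcript per kb only in WT 3.

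In mean level per kb over the 6 libraries, Npr3 came first with 959 normalised reads per kb, followed by Npr2 with 821, Gucy1b1 with 302, Prkg1 with 114, Gucy1a1 with 111, Pde5a with 70.6, Prkg2 with 69.0, Gucy1a2 with 52.1 and Npr1 with 3.54. Most neighbours in this order had overlapping ranges over the libraries. The exceptions were Npr2, whose lowest library (728) was just above the highest of Gucy1b1 (717), and Gucy1a2, whose lowest library (26.3) was above the highest of Npr1 (11.1). Npr3 stood at rank 1961 of the genes tested and Npr1 at rank 15116.

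How much of each gene's variation ran with genotype and how much with the library number was computed from the variance of log2(value + 1) over the 6 libraries. Genotype took 91.7% of the variance of Gucy1a2 and the number 7.87%. For the other genes of the set the genotype share was 0.0743% in Npr3 to 11.4% in Npr2. The number took 95.6% in Gucy1b1, 93.4% in Prkg2, 89.8% in Npr1, 85.8% in Npr3, 73.1% in Npr2 and 72.9% in Gucy1a1, but 24.9% in Prkg1 and 27.8% in Pde5a. Over all genes tested the median was 5.91% for genotype and 73.8% for the number, and over the 9 genes 1.75% and 73.1%. The median span from the lowest to the highest library, on value + 1, was 8.01-fold for the 9 genes and 2.11-fold for all genes. The median log2 fold change was -0.13 for the 9 genes and 0.0022 for all genes.

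**Figure D5:**
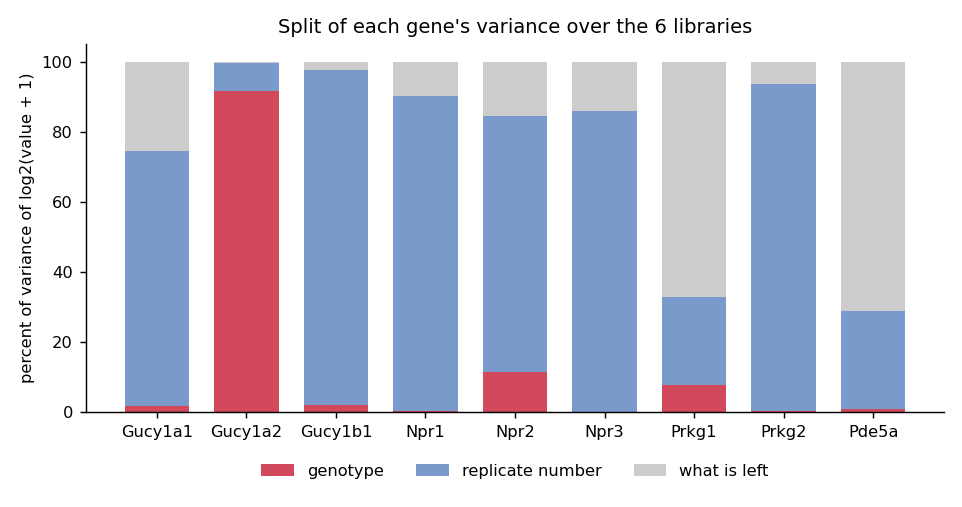
Share of the variance of log2(value + 1) over the 6 libraries that ran with genotype, with the replicate number and with neither, for each gene. Genotype takes 91.7% in Gucy1a2 and at most 11.4% elsewhere, and in Prkg1 and Pde5a most of the variance (67.2% and 71.2%) is in neither.

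The rest of the pathway was described from 6 lists that together held 79 symbols, of which Mrvi1 and Lrmp are older names of the listed Irag1 and Irag2. Of these, 62 had values and 50 were tested. None was called by limma, by DESeq2 or by DESeq2 with the block, and 2 had an unadjusted limma p under 0.05, Pde3a and Trpc6. By sign, 34 were lower and 16 higher in CharmeKO, with a median log2 fold change of -0.18. CharmeKO lay wholly below WT in 2 of the 50 (4%), against the 1.98% of all genes given above, and 6 of the 50 were lower at all 3 numbers, as were 14.0% of all genes.

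Upstream of sGC, the enzymes that make nitric oxide were barely present. Nos1, the neuronal synthase, had at most 7.88 normalised reads, Nos3, the endothelial synthase, at most 17.7, and Nos2, the inducible synthase, at most 47.2, which was in CharmeKO 2. Of 15 genes tested for nitric oxide synthesis and arginine supply, 5 were lower and 10 higher, with a median log2 fold change of 0.05. Cyb5r3, the reductase that keeps the haem iron of sGC able to bind nitric oxide, was the only one of the 50 pathway genes tested with CharmeKO wholly above WT, as were 2.14% of all genes. It had 21358, 23257 and 20079 normalised reads in WT 1, 2 and 3 and 24655, 24359.9 and 25689 in CharmeKO 1, 2 and 3, a log2 fold change of 0.21 (SE 0.179) that did not pass the test. Ddah2 had a log2 fold change of 0.12 (SE 0.172), and Nostrin, which binds the endothelial synthase, had -0.85 (SE 0.780).

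The ligands of the peptide receptors were near the floor as well. Nppb, which encodes the brain peptide, had at most 7.88 normalised reads and Nppc, which encodes the C-type peptide, at most 13.2. The reads of Nppc numbered 2, 12 and 12 for WT 1, 2 and 3 and 0, 10 and 4 for CharmeKO 1, 2 and 3. In the list of natriuretic peptides and their processing, all 5 genes tested were lower in CharmeKO, with a median log2 fold change of -0.64. Among them only Nppc and Ostn encode peptides, and the rest encode proteases. Medians at single numbers were -0.11, -1.70 and -0.37, so the difference was largest at number 2, and the groups overlapped in every gene of this list. The protease gene Pcsk6 had 1611, 3826 and 2238 normalised reads in WT 1, 2 and 3 and 1876, 1179.8 and 1062 in CharmeKO 1, 2 and 3, higher at number 1 and lower at numbers 2 and 3. Ostn, which encodes a peptide that binds the clearance receptor, had at most 50.2. Of 6 other guanylate cyclases listed, Gucy2c alone had values, at most 5.77 normalised reads.

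In the list of other cGMP phosphodiesterases, 5 of 7 genes tested were lower and 2 higher, with a median log2 fold change of -0.55. One of the 2 higher was Pde6d (log2 fold change 0.01), which encodes a subunit that is not itself catalytic. Pde3a, a cAMP phosphodiesterase that cGMP inhibits, had 2856, 3388 and 3119 normalised reads in WT 1, 2 and 3 and 2379.6, 2485 and 1642 in CharmeKO 1, 2 and 3. Every CharmeKO library was below every WT library, and the log2 fold change was -0.55 (SE 0.205), with -0.26, -0.45 and -0.93 at numbers 1, 2 and 3, although it did not pass the limma test over all genes. The related Pde3b had a log2 fold change of -0.78 (SE 0.371) and Pde10a of -0.32 (SE 0.187), and for both genes the CharmeKO library was slightly higher at number 1 and lower at numbers 2 and 3.

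Of 18 kinase substrates and effectors tested, 14 were lower and 4 higher, with a median log2 fold change of -0.18. Medians at single numbers were 0.06, -0.17 and -0.86, and WT 3, which was high in smooth muscle markers, had the highest summed level of this list (150487 normalised reads against 82254 to 91665 in the other 5 libraries). Cnn1 (calponin), a member of this list and of the smooth muscle list, had 14655 normalised reads in WT 3 and at most 978 in any other library. The part of these markers in the list was not tested. Ppp1r12a, the targeting subunit of myosin phosphatase, had 2811, 3759 and 3531 normalised reads in WT 1, 2 and 3 and 2098, 2637 and 3249 in CharmeKO 1, 2 and 3, a log2 fold change of -0.35 (SE 0.217). Trpc6, a calcium channel that the kinase phosphorylates, had 31.5, 22.4 and 31.9 normalised reads in WT and 22.1, 0 and 0 in CharmeKO 1, 2 and 3, and a count of 0 allows up to 3 reads. All 6 channels and exporters tested were lower in CharmeKO, with a median of -0.34. Medians at single numbers were 0.03, -0.52 and -0.69, and the groups overlapped in each of the 6. Among those with the lowest p, the pacemaker channel gene Hcn2 had a log2 fold change of -0.54 (SE 0.296) and the cyclic nucleotide-gated channel gene Cngb1 one of -1.24 (SE 0.923).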

How the data were processed

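CFs were profiled by poly(A) RNA-seq in 3 WT and 3 CharmeKO libraries. According to the methods and the submitters' processing notes, the authors used STAR both to align the reads and to count them by gene, on the reverse strand, normalised with DESeq2 and deposited 1 table of the normalised read signal, that is, reads divided by a size factor per library. The methods name GRCm39 with an Ensembl release made for GRCm38, and the notes also list GRCh38. Coordinates here are those of GENCODE M21 (GRCm38), in which 19373 of 19446 identifiers were found. STAR's gene counts drop reads that overlap more than 1 gene on the strand.

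Values were whole multiples of 1 read's worth in each library (100% of 116676 values within 0.0001), so reads were recovered. The main test was limma 3.58.1 with a trend on log2(value + 1), with no term but genotype, on 15948 genes that reached 10 reads in 2 or more libraries, with Benjamini-Hochberg adjustment at 0.05. edgeR 4.0.16 (quasi-likelihood) and DESeq2 1.42.0 on the recovered reads, a replicate block, other pseudocounts, filters and scalings, and leaving out each library were alternatives (R 4.3.3, Python 3.11.15, matplotlib 3.10.9). A count of 0 allows up to 3 reads, counting error only. Scripts were tested on simulated data.

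Deviations of same-numbered libraries from their group means correlated across genes with r = 0.762, 0.514 and 0.217, and those of other libraries with -0.643 to 0.222. The numbers were taken to pair the libraries, although CharmeKO 3 was as much like WT 2 (r = 0.222) as like WT 3. The labels do not say what the numbers share.

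The genes of the set, the gene lists and the tests were chosen with earlier results of these data known. Named are the 9 genes, up to 3 genes per pathway list with the lowest p, genes that define a cell type, and for Gucy1a1, Npr3, Prkg1 and Pde5a the 5 genes with the highest Pearson's r. Nos1, Nos2, Nos3, Nppb, Gucy2c, Cnn1, Wt1, Krt18, Krt19 and CUFF405 were named after their values had been seen. So were Acta2, Actg2, Cspg4, Myh11, Tnnt2, Tnni3, Actn2 and Pde6d. Exact permutation tests of the differences in the Gucy1a1 to Gucy1b1 and Npr3 to Npr2 ratios were run but not read, for the same reason. 1 gene that the rule names is not reported here. Freshly isolated CFs were not analysed here.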

Additional observations from a re-analysis of the deposited data

How the results depend on the processing

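DESeq2 on the recovered reads called 1 gene of the set and 8 of all genes, against 0 and 0 by limma, and DESeq2 with the replicate block called 1 and 64. Limma and edgeR with the block called 0 of all genes, as did the other alternatives, and no setting called a pathway gene. The gene of the set was Gucy1a2 both times. The block left the differences in the Gucy1a1 to Gucy1b1 and Npr3 to Npr2 log2 ratios at 0.14 and 0.16. With single libraries left out they ranged from -0.35 to 0.57 and from -0.82 to 0.85.

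Gucy1a2 kept its direction under all 17 alternatives (-1.24 to -1.20 with all libraries). Its groups did not overlap, so leaving out a library could not reverse it, and nothing is read from this. The other 8 genes reversed when some library was left out: Gucy1a1 ranged from -0.89 to 0.61 (log2 fold change), Gucy1b1 from -1.46 to 0.43, Npr1 from -0.88 to 0.86, Npr2 from -0.20 to 0.0031, Npr3 from -0.87 to 0.76, Prkg1 from -0.66 to 0.081, Prkg2 from -0.82 to 0.85 and Pde5a from -0.52 to 0.38. edgeR and DESeq2 on the recovered reads without the block also reversed Gucy1a1 (0.014 and 0.0080) and Prkg2 (-0.047 and -0.061). The same fits changed the size for other genes without a reversal. They gave 0.56 and 0.55 for Npr3 (limma 0.06) and 0.71 in both for Npr1 (limma 0.18). For Gucy1b1 they gave -0.049 and -0.053 (limma -0.41). The ratio of the group means, CharmeKO over WT, was 1.01 for Gucy1a1, 0.960 for Prkg2, 1.46 for Npr3, 1.64 for Npr1 and 0.969 for Gucy1b1. The cause of these differences between methods was not tested. Npr1 had no value under the filter on a mean of 50.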
